A study of Mus musculus with 6 samples.

Results

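RNA sequencing of mouse embryonic fibroblasts (MEFs) was used to describe 42 genes of the interferon response in wild-type (WT) and *Aff3ir-ORF2-/-* cells. The genes were chosen by name: 8 transcription factors (7 Irf genes and *Stat2*), 12 genes of the type I response (Ifit, Oas and Oasl genes, *Isg15*, *Usp18*, *Rsad2* and *Mx2*), 8 GTPases known as targets of interferon-gamma (*Irgm1*, *Irgm2*, *Igtp*, *Iigp1*, *Tgtp1*, *Gbp2*, *Gbp3* and *Gbp7*), 3 RNA sensors and 11 other stimulated genes. Of these 42 genes, 41 had a row among the 17092 genes of the count table, and 39 were tested among 13075 genes. *Mx2* was not analysed here, and *Oas2* and *Oas3* were left out of the main test by its filter on low counts. Each genotype had 3 libraries, called WT1 to WT3 and KO1 to KO3 as in the labels. The knockout was global, removing the nested variant *Aff3ir-ORF2* of the *Aff3* locus in all cells of the mouse, and the sources used here name no interferon, flow or other treatment of the sequenced cells. Neither the strain, the embryonic age nor the number of embryos behind each culture of the sequenced MEFs is given in the sources used here, so the p-values measure the spread between these libraries, which may be technical. The study asked how loss of *Aff3ir-ORF2* changed gene expression in these cells, with *Irf5* and *Irf8* among the factors it followed. By RT-PCR in MEFs of both genotypes, it reported no effect of the loss on the level of *Irf5* or *Irf8*.

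Interferons are secreted proteins that cells release on sensing viral nucleic acid or inflammatory signals, and that act on neighbouring cells through surface receptors and Jak kinases. Type I interferons activate a complex holding *Stat2* and *Irf9* that binds the interferon-stimulated response element (ISRE) in the promoters of antiviral genes such as the Ifit and Oas families, whereas interferon-gamma, made mainly by lymphocytes, acts through the gamma-activated site (GAS). Irf proteins bind ISRE-like elements as well, and fibroblasts are able to answer both kinds of interferon.

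Promoter sequences are shown for genes of both arms, because genes holding the same words fell on different sides of the thresholds used later. RefSeq promoters of the GRCm38.p6 assembly were available for 33 of the 42 genes, each covering 250 bases before and 50 bases after an annotated start. For 9 genes the 160 bases before the start are printed here on the strand of the gene, 5′ to 3′. For *Ifit3* and *Irgm2*, the bases just after this start were not found in a GENCODE M21 transcript of the gene. Their starts rest on RefSeq alone. Capitals mark matches to an ISRE-like word, GAAA, any 2 bases and GAAA again on either strand, or to a GAS-like word, TTCNNNGAA, which reads the same on both strands. Where capitals run on beyond a single word, several words overlap or adjoin.

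Irf1, chr11:53769854-53770013, plus strand: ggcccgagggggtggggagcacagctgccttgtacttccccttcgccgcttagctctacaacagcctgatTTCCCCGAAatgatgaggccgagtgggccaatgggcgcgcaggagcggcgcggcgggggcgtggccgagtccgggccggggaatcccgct

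Irgm1, chr11:48871421-48871580, minus strand: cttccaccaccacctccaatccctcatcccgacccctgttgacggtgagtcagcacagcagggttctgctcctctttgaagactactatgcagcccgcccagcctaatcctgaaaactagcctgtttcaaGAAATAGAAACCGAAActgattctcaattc

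Irgm2, chr11:58214817-58214976, plus strand: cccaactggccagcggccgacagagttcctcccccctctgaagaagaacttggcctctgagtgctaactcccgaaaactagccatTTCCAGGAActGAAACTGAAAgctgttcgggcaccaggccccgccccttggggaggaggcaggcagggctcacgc

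Igtp, chr11:58199396-58199555, plus strand: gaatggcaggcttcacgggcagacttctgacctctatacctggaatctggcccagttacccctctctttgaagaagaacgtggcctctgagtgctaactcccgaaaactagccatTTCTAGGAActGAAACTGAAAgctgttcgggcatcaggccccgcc

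Tgtp1, chr11:48992247-48992406, minus strand: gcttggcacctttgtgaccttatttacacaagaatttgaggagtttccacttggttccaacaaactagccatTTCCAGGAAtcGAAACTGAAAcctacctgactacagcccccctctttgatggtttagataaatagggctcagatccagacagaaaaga

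Ifit1, chr19:34640729-34640888, plus strand: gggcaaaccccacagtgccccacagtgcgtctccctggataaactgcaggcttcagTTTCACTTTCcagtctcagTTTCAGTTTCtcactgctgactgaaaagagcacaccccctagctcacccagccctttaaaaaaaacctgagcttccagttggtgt

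Ifit3, chr19:34583369-34583528, plus strand: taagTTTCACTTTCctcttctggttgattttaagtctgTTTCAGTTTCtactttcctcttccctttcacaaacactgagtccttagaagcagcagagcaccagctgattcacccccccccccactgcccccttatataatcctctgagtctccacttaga

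Isg15, chr4:156200819-156200978, minus strand: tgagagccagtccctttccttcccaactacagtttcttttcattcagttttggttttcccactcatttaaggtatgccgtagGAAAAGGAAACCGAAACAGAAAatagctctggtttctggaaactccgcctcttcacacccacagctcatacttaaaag

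Oasl1, chr5:114923080-114923239, plus strand: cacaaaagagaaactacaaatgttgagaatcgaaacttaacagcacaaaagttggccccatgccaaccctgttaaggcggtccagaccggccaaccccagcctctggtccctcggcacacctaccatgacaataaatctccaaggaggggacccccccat

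Of the 38 promoters of these genes, 18 (47.4%) held an ISRE-like word, against 3.44% of the 32851 promoters in the table, and 11 (28.9%) held a GAS-like word, against 8.3%. The genes were listed as known genes of the interferon response, so shares above those of all promoters could follow from that choice. All 7 GTPase genes with a promoter held an ISRE-like word and 4 of them held a GAS-like word as well. In *Irgm2*, *Igtp* and *Tgtp1*, all on chromosome 11, the GAS-like word began 11 bases before the ISRE-like word. The windows of *Irgm2* and *Igtp* were identical at 107 of 130 aligned bases (82.3%). Among the type I genes, 6 of 9 held an ISRE-like word, with 2 words each in *Ifit1* and *Ifit3* and 3 overlapping words in *Isg15*. *Oasl1* and *Oasl2* held neither word. Among the factors, a GAS-like word lay 90 bases before the start of *Irf1*. *Irf8* held 2 GAS-like words, *Irf2* 1 of each word and *Stat2* 1 ISRE-like word, while *Irf3*, *Irf5*, *Irf7* and *Irf9* held neither. A match is a description of the letters in this window and not a measured binding site.

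**Figure D1:**
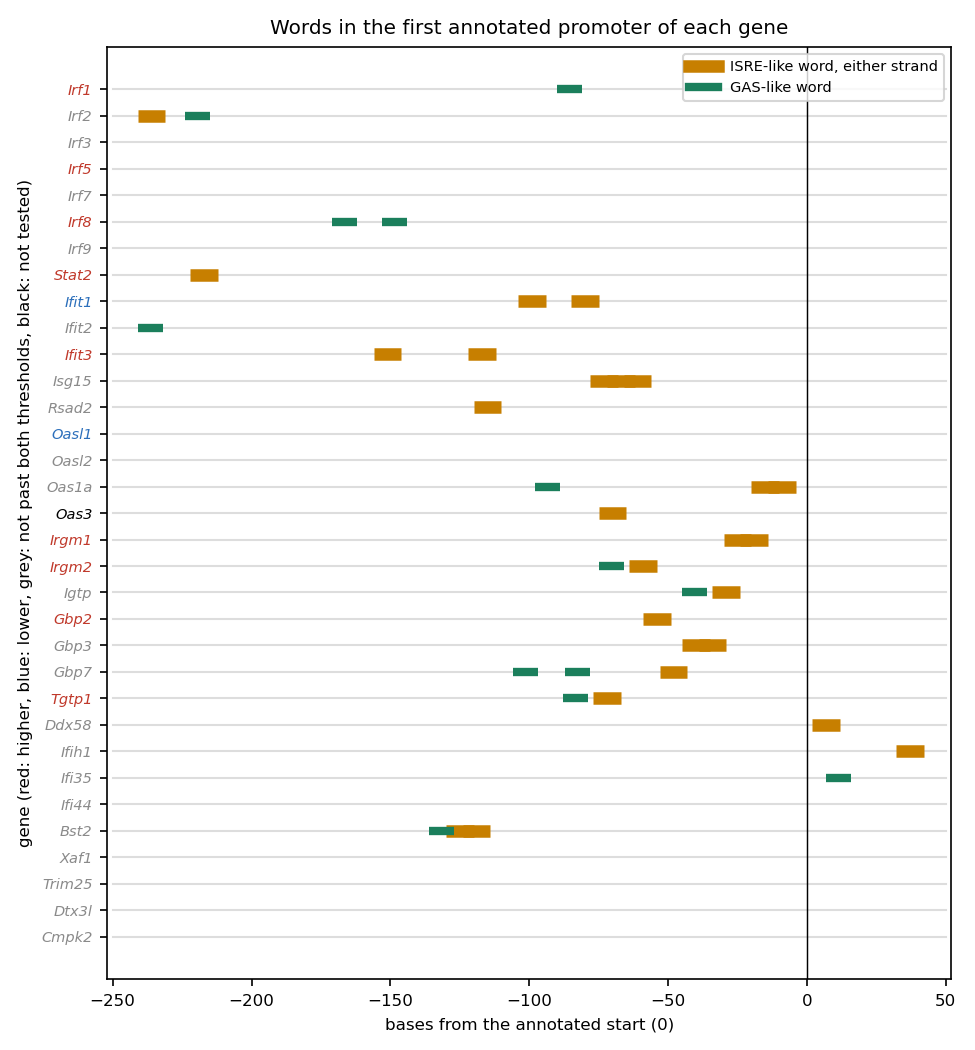
Positions of ISRE-like (orange) and GAS-like (green) words in the first annotated promoter of each gene, in bases from the start, with gene names coloured by the comparison of genotypes. ISRE-like words fall mostly in the GTPases and type I genes, and genes in red (higher), blue (lower) and grey (not past both thresholds) all include promoters with an ISRE-like word.

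Several features of the libraries bear on every value that follows. Total counts ranged from 17435133 to 17726034 in WT and from 18209421 to 18252330 in *Aff3ir-ORF2-/-* libraries, and levels are given as CPM, counts scaled to a common library size with edgeR's TMM factors. *Aff3ir* was not analysed here. The parent gene *Aff3* was counted 406, 406 and 418 times in WT and 229, 186 and 209 times in *Aff3ir-ORF2-/-* libraries, a log2 fold change of -1.06 (standard error (SE) 0.09, edgeR adjusted p = 1.23e-05). The spread between libraries beyond counting noise, as the common biological coefficient of variation, was 0.0185 in WT and 0.0996 in *Aff3ir-ORF2-/-* libraries. It was 0.0641 in the latter without KO2, the only library left out for this measure. All 12 fibroblast markers were counted, with sums of 31390 to 31569 CPM in WT and 25946 to 33363 CPM in *Aff3ir-ORF2-/-* libraries. All 16 macrophage markers were higher in *Aff3ir-ORF2-/-* cells (median log2 fold change 6.35), with sums of 21.3 to 24.6 CPM in WT and 1358, 1875 and 2304 CPM in KO1, KO2 and KO3. The complement genes *C1qa* and *C1qb*, which mark macrophages, were at 0 in every WT library. In bulk RNA, fewer cells of a type and less RNA per cell cannot be told apart, and the part of the macrophage markers in the results on interferon genes was not tested. The 5 of 12 lymphocyte markers with a row summed to 0.290 to 0.401 CPM in WT and 0.494 to 0.644 CPM in *Aff3ir-ORF2-/-* libraries, and none had enough counts to be tested. The 10 of 12 dendritic cell markers with a row summed to 165 to 173 CPM in WT and 143 to 165 CPM in *Aff3ir-ORF2-/-* libraries, most of it from *Tcf4* and *Runx2*, which other cells express too. Of the 4 that were tested, *Zbtb46* rose, with counts of 40, 34 and 44 in WT and 59, 64 and 65 in *Aff3ir-ORF2-/-* libraries (log2 fold change 0.59, edgeR adjusted p = 0.0154). *Itgax*, counted 0, 0 and 1 against 15, 10 and 16 times, was not tested, and *Flt3*, *Clec9a*, *Batf3* and *Ccr9* had at most 3 counts in any library. The 8 of 10 endothelial markers with a row summed to 20.8 to 22.7 CPM in WT and 37.4 to 48.7 CPM in *Aff3ir-ORF2-/-* libraries, most of it from *Eng* and *Kdr*. They did not move as a set. Of the 6 that were tested, 4 rose (*Eng*, *Kdr*, *Vwf* and *Erg*) and *Cdh5* fell (log2 fold change -0.90, edgeR adjusted p = 0.0294). *Tek* was at -1.28 (edgeR adjusted p = 0.0564), and *Pecam1*, with at most 5 counts in any library, was not tested.

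A gene was called higher or lower when edgeR's quasi-likelihood test gave a Benjamini-Hochberg adjusted p under 0.05 over all tested genes and the change was at least 1.5-fold, and "rose" and "fell" are used for such genes alone. Of the 39 tested interferon genes, 12 (30.8%) rose in *Aff3ir-ORF2-/-* MEFs, against a background of 14.2% of all tested genes, and 2 (5.13%) fell, against 7.27%. By the adjusted p alone, 17 were higher, against a background of 29.3%, and 3 were lower, against 27.5%. In 16 genes every *Aff3ir-ORF2-/-* library lay above every WT library, against 33.3% of all tested genes, and in 4 every one lay below, against 32.7%. The genotypes overlapped in the other 19, whereas 66.0% of all tested genes showed no overlap in either direction. The median log2 fold change was 0.12 over the interferon genes and 0.0056 over all tested genes. The genes were chosen with earlier results of these data known, so these shares describe the list, and an excess over the background was not tested.

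The 3 main groups are set side by side here. Of the 8 factors, 4 rose and none fell, with a median log2 fold change of 0.70. Of the 8 GTPases, 5 rose and none fell, with a median of 1.04 and all 8 values above 0. Of the 9 tested type I genes, 1 rose and 2 fell, with a median of -0.45 and 8 of 9 values below 0. These are descriptions of lists chosen by name, and the difference between the groups was not tested. *Irf8* and *Tgtp1* passed the filter on low counts through the *Aff3ir-ORF2-/-* libraries alone, and *Oasl1* through the WT libraries alone. A gene this low in 1 genotype could be tested only if it was higher in the other. When each library had to reach 10 counts, 3 of 6 GTPases and 3 of 7 factors rose. Of the 7 type I genes left by that filter, 1 rose and 1 fell. Summed over each group, the factors went from 83.1, 83.2 and 87.6 CPM in WT1 to WT3 to 111, 138 and 129 CPM in KO1 to KO3, and the GTPases from 35.8, 34.2 and 38.9 CPM to 64.2, 88.2 and 66.3 CPM. The summed type I genes were at 71.2, 69.6 and 74.1 CPM in WT and at 61.5, 58.0 and 60.9 CPM in *Aff3ir-ORF2-/-* libraries. For all 3 sums the libraries of the genotypes did not overlap, the first 2 lying above WT and the third below it. Of all tested genes taken singly, 66.0% did not overlap either. The sums weigh the most abundant genes most, as with *Irgm1*, at a mean of 17.5 CPM in WT and 41.2 CPM in *Aff3ir-ORF2-/-* libraries. *Ifit2*, which did not pass both thresholds, was at a mean of 44.7 CPM in WT and 38.8 CPM in *Aff3ir-ORF2-/-* libraries.

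**Figure D2:**
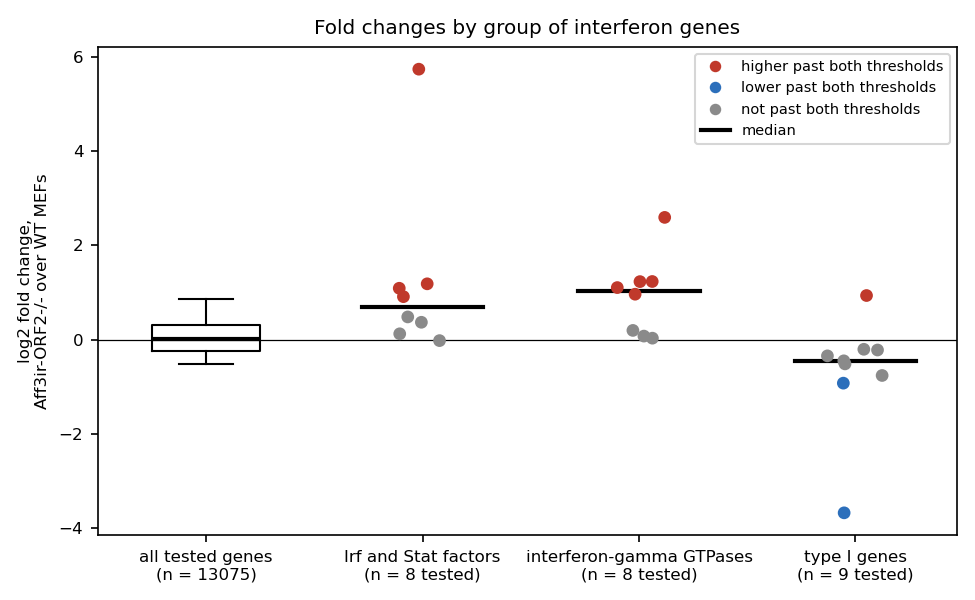
Log2 fold change (*Aff3ir-ORF2-/-* over WT) of each tested gene in 3 groups of interferon genes, with all 13075 tested genes as a box (quartiles, with whiskers at the outer deciles). The bars are medians, at 0.70 for the factors, 1.04 for the GTPases and -0.45 for the type I genes.

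**Figure D3:**
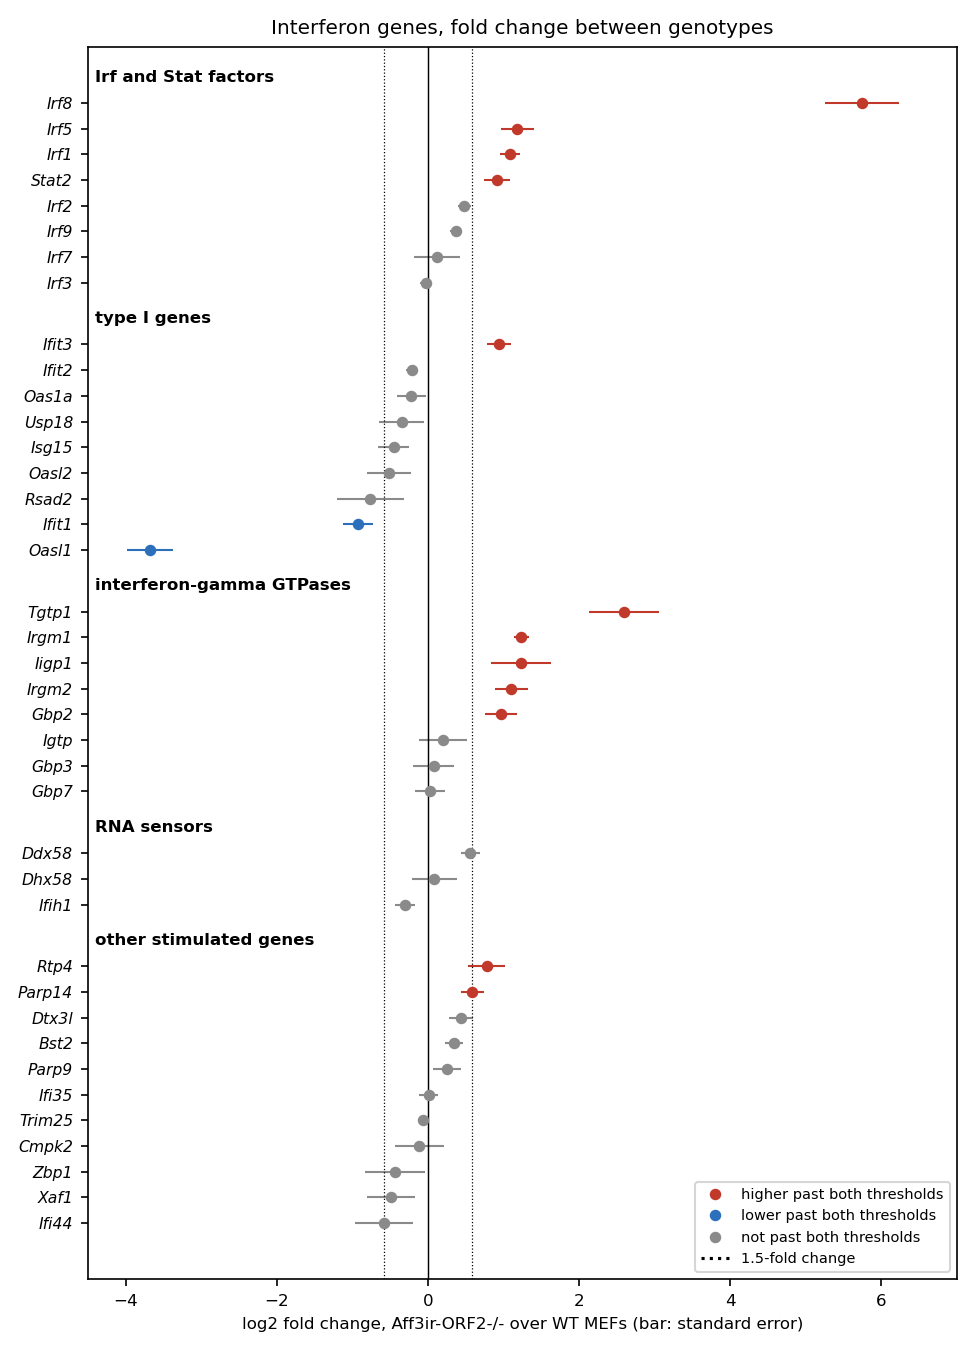
Log2 fold change (x axis, *Aff3ir-ORF2-/-* over WT) of the 39 tested interferon genes with its standard error, by group. *Irf8* (5.74) and *Oasl1* (-3.68) lie farthest from 0, and all 8 GTPases lie at or to the right of it.

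Among the factors, *Irf8*, *Irf5*, *Irf1* and *Stat2* rose. *Irf8* (gene ID 15900), a factor of myeloid cell development that also serves interferon responses, was counted 2, 4 and 0 times in WT and 82, 125 and 153 times in KO1 to KO3. It was thus near the detection floor of 3 counts in WT and detected in every *Aff3ir-ORF2-/-* library. Its level went from 0.115 ± 0.114 to 6.52 ± 1.92 CPM (mean ± SD, n = 3), with a log2 fold change of 5.74 (SE 0.49, edgeR adjusted p = 2.34e-05). With WT near the floor this size is loosely set, and leaving out single libraries moved it between 5.18 and 6.66. *Irf5* (gene ID 27056), which acts below Toll-like receptors and is well expressed in macrophages, was counted 49, 46 and 31 times in WT and 87, 90 and 126 times in *Aff3ir-ORF2-/-* libraries. The genotypes did not overlap, and KO3 was highest for both *Irf5* and *Irf8*, as it was for 13 of the 16 macrophage markers. KO3 was also the highest knockout library for 34.4% of all tested genes, and a link between these orders was not tested. *Irf5* rose from 2.41 ± 0.563 to 5.49 ± 1.19 CPM (mean ± SD, n = 3), with a log2 fold change of 1.19 (SE 0.22, edgeR adjusted p = 0.00132).

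*Irf1* (gene ID 16362), an early response gene whose product drives many interferon-gamma responses, was counted 98, 117 and 136 times in WT and 232, 297 and 261 times in *Aff3ir-ORF2-/-* libraries. It was about doubled in each *Aff3ir-ORF2-/-* library, going from 6.71 ± 1.05 to 14.3 ± 1.60 CPM (mean ± SD, n = 3), with a log2 fold change of 1.09 (SE 0.13, edgeR adjusted p = 1.01e-04). *Stat2* (gene ID 20847), the partner of *Irf9* in the type I complex, was counted 276, 304 and 368 times in WT and 490, 761 and 635 times in *Aff3ir-ORF2-/-* libraries. KO1 was the lowest of the knockout libraries for both genes and still lay above every WT library. *Stat2* went from 18.1 ± 2.63 to 34.1 ± 6.98 CPM (mean ± SD, n = 3), with a log2 fold change of 0.91 (SE 0.17, edgeR adjusted p = 0.00356).

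The other 4 factors did not pass both thresholds. *Irf9* (gene ID 16391), the DNA-binding subunit of the type I complex, was counted 279, 287 and 309 times in WT and 372, 431 and 390 times in *Aff3ir-ORF2-/-* libraries, and *Irf2* (gene ID 16363), which competes with *Irf1* for its sites, 154, 172 and 165 against 241, 237 and 246 times. Both were above WT in every library and passed the adjusted p but not the 1.5-fold change, with log2 fold changes of 0.37 (SE 0.08, edgeR adjusted p = 0.00255) and 0.48 (SE 0.09, edgeR adjusted p = 0.00107). *Irf3* (gene ID 54131), which is activated by phosphorylation after nucleic acid sensing, was counted 536, 492 and 456 times in WT and 489, 562 and 494 times in *Aff3ir-ORF2-/-* libraries, a log2 fold change of -0.02 (SE 0.08, edgeR adjusted p = 0.841) whose sign changed with the scaling. *Irf7* (gene ID 54123), itself a stimulated gene and the amplifier of interferon-alpha production, was counted 39, 41 and 65 times in WT and 34, 74 and 59 times in *Aff3ir-ORF2-/-* libraries. The genotypes overlapped for both, and the log2 fold change of *Irf7* was 0.12 (SE 0.30, edgeR adjusted p = 0.744), or -0.13 without KO2.

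Compared per kilobase of the longest GENCODE M21 transcript, *Irf3* had the highest WT level of the factors at 14.0 CPM per kb, followed by *Irf9* at 4.32, *Stat2* at 4.12 and *Irf1* at 3.14 CPM per kb. In *Aff3ir-ORF2-/-* MEFs *Irf3* was at 13.8, *Stat2* at 7.76, *Irf1* at 6.69 and *Irf9* at 5.58 CPM per kb, so that *Stat2* and *Irf1* stood above *Irf9* there. *Irf5* and *Irf8* remained the lower ones of those that rose, at 2.45 and 1.88 CPM per kb.

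**Figure D4:**
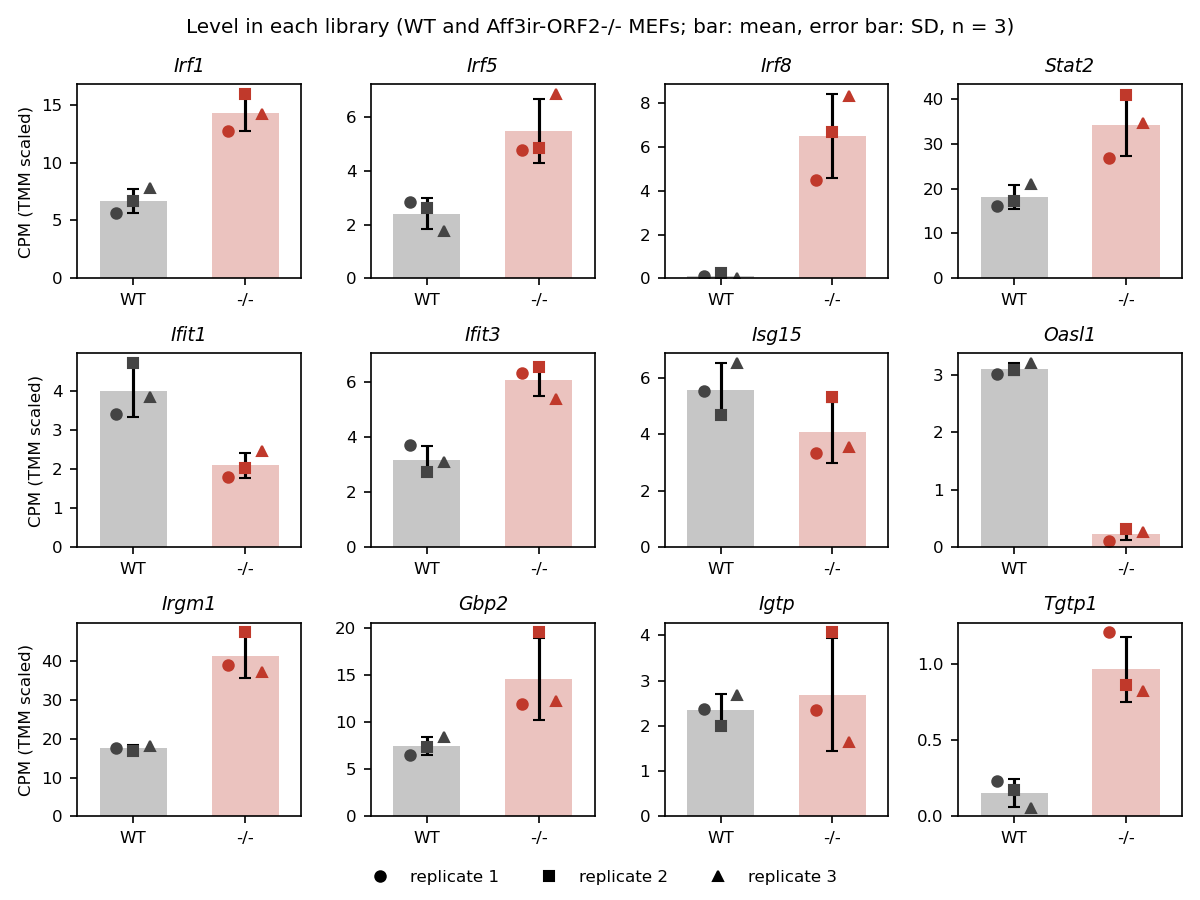
Level in each library (y axis, CPM scaled by TMM) of 12 interferon genes in WT and *Aff3ir-ORF2-/-* MEFs, with bars for the mean and error bars for the SD (n = 3). The genotypes separate for *Irf1*, *Irf5*, *Irf8*, *Stat2*, *Ifit3*, *Irgm1*, *Gbp2* and *Tgtp1* (*Aff3ir-ORF2-/-* above) and for *Ifit1* and *Oasl1* (below), and overlap for *Isg15* and *Igtp*.

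The type I genes were split, with *Oasl1* and *Ifit1* lower and *Ifit3* higher. *Oasl1* (gene ID 231655), a 2′-5′ oligoadenylate synthetase-like protein known to restrain translation of *Irf7*, was counted 52, 54 and 56 times in WT and 2, 6 and 5 times in *Aff3ir-ORF2-/-* libraries. The WT libraries were nearly equal and the *Aff3ir-ORF2-/-* libraries close to the detection floor. The level went from 3.10 ± 0.0974 to 0.235 ± 0.111 CPM (mean ± SD, n = 3), with a log2 fold change of -3.68 (SE 0.31, edgeR adjusted p = 1.16e-05), and it stayed between -3.97 and -3.35 when single libraries were left out. *Ifit1* (gene ID 15957), which binds viral RNA that lacks the host cap methylation, was counted 59, 83 and 67 times in WT and 33, 38 and 45 times in *Aff3ir-ORF2-/-* libraries. It fell from 3.99 ± 0.664 to 2.10 ± 0.325 CPM (mean ± SD, n = 3), with a log2 fold change of -0.92 (SE 0.20, edgeR adjusted p = 0.00297).

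*Ifit3* (gene ID 15959), which stabilizes the binding of *Ifit1* family proteins to RNA, was counted 64, 48 and 54 times in WT and 115, 122 and 99 times in *Aff3ir-ORF2-/-* libraries. It moved against *Ifit1*, from 3.18 ± 0.496 to 6.09 ± 0.610 CPM (mean ± SD, n = 3), with a log2 fold change of 0.94 (SE 0.16, edgeR adjusted p = 7.97e-04), although both promoters hold 2 ISRE-like words. Counts of *Ifit3* are uncertain to the extent that reads are shared with its close copy *Ifit3b*, which was counted 13, 24 and 17 times in WT and 17, 25 and 31 times in *Aff3ir-ORF2-/-* libraries. *Ifit2* (gene ID 15958), another RNA-binding member of the family, was counted 795, 773 and 768 times in WT and 790, 648 and 700 times in *Aff3ir-ORF2-/-* libraries. It had the highest WT level of the type I genes per kilobase, at 11.7 CPM per kb against 7.36 for *Isg15* and at most 1.82 for the others. Its log2 fold change of -0.21 (SE 0.08, edgeR adjusted p = 0.0469) passed the adjusted p but not the fold, and it missed the adjusted p (0.0622 to 0.146) without WT1, WT2, WT3, KO2 or KO3. It also missed it with upper quartile scaling (0.0753), DESeq2's Wald test (0.0766), total counts (0.0666), a filter of 10 counts per library (0.0571) and no robust estimation (0.0529).

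*Isg15*, *Oasl2* and *Rsad2* depended on single libraries, which moved them in both directions. *Isg15* (gene ID 100038882), a ubiquitin-like modifier and one of the most widely used markers of interferon action, was counted 95, 82 and 114 times in WT and 61, 99 and 65 times in *Aff3ir-ORF2-/-* libraries. KO1 and KO3 lay below every WT library and KO2 did not. The log2 fold change was -0.45 (SE 0.20, edgeR adjusted p = 0.0857), and -0.69 (edgeR adjusted p = 0.00317) without KO2. Without WT3, the highest WT library for *Isg15*, it was -0.32. *Oasl2* (gene ID 23962), the second Oas-like protein, was counted 39, 41 and 69 times in WT and 26, 47 and 37 times in *Aff3ir-ORF2-/-* libraries, a log2 fold change of -0.52 (SE 0.29, edgeR adjusted p = 0.151), and -0.73 (edgeR adjusted p = 0.0391) without KO2. Without WT3, also its highest WT library, the log2 fold change was -0.21. *Rsad2* (gene ID 58185), which encodes viperin, an enzyme that makes a chain-terminating nucleotide, was counted 27, 32 and 28 times in WT and 8, 12 and 34 times in *Aff3ir-ORF2-/-* libraries. Here KO3 alone reached the WT level, and the log2 fold change of -0.76 (SE 0.45, edgeR adjusted p = 0.175) was -1.61 (edgeR adjusted p = 0.00236) without it. The log2 fold change was -0.42 without KO1. With KO2 left out, 4 type I genes fell in place of 2.

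The remaining type I genes did not pass the test. *Usp18* (gene ID 24110), which removes *Isg15* from proteins and dampens the receptor, was counted 34, 47 and 72 times in WT and 34, 37 and 56 times in *Aff3ir-ORF2-/-* libraries, a log2 fold change of -0.34 (SE 0.30, edgeR adjusted p = 0.350), or -0.02 without WT3. *Oas1a* (gene ID 246730), a synthetase that activates the RNA-degrading enzyme RNase L, was counted 55, 58 and 57 times in WT and 41, 50 and 63 times in *Aff3ir-ORF2-/-* libraries, a log2 fold change of -0.22 (SE 0.19, edgeR adjusted p = 0.345). The genotypes overlapped for both. *Oas2*, counted 2, 2 and 2 times in WT and 5, 16 and 6 times in *Aff3ir-ORF2-/-* libraries, and *Oas3*, counted 5, 4 and 8 against 5, 5 and 7 times, did not pass the filter on low counts. Without that filter *Oas2*, which was at 3 counts or fewer in every WT library, was called higher (edgeR adjusted p = 0.0225) and *Oas3* was not (edgeR adjusted p = 0.909).

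Among the GTPases, which attack the vacuoles of intracellular microbes, *Irgm1*, *Irgm2*, *Iigp1*, *Gbp2* and *Tgtp1* rose. *Irgm1* (gene ID 15944), a regulator of the other immunity-related GTPases, was counted 303, 294 and 319 times in WT and 709, 886 and 683 times in *Aff3ir-ORF2-/-* libraries. It was more than doubled in each of them, from 17.5 ± 0.769 to 41.2 ± 5.54 CPM (mean ± SD, n = 3), with a log2 fold change of 1.24 (SE 0.10, edgeR adjusted p = 1.01e-05). Per kilobase it was the most abundant GTPase in both genotypes, at 4.57 CPM per kb in WT and 10.8 in *Aff3ir-ORF2-/-* MEFs. *Gbp2* (gene ID 14469), a guanylate-binding protein, was counted 113, 130 and 148 times in WT and 218, 365 and 224 times in *Aff3ir-ORF2-/-* libraries. KO2 stood above the other knockout libraries, which also lay above WT. *Gbp2* went from 7.47 ± 0.961 to 14.6 ± 4.33 CPM (mean ± SD, n = 3), with a log2 fold change of 0.97 (SE 0.22, edgeR adjusted p = 0.00644), with a range of 0.69 to 1.08 when single libraries were left out.

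*Irgm2* (gene ID 54396), a further regulator of the family, was counted 61, 46 and 62 times in WT and 94, 166 and 125 times in *Aff3ir-ORF2-/-* libraries, whereas *Igtp* (gene ID 16145), the third member of the same regulatory subfamily, was counted 41, 35 and 47 against 43, 76 and 30 times. The genotypes separated for *Irgm2* and overlapped for *Igtp*, in which KO2 was the highest and KO3 the lowest of all 6 libraries. The log2 fold change was 1.11 (SE 0.22, edgeR adjusted p = 0.0021) for *Irgm2* and 0.20 (SE 0.32, edgeR adjusted p = 0.620) for *Igtp*, or -0.24 for *Igtp* without KO2. Both promoters carry the paired words printed above, and the difference between the genes was not tested. How the counting treated reads shared between these similar genes is not known.

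*Tgtp1* (gene ID 21822), a T-cell specific GTPase that is also induced in other cells, was counted 4, 3 and 1 times in WT and 22, 16 and 15 times in *Aff3ir-ORF2-/-* libraries. It was low throughout, with a log2 fold change of 2.60 (SE 0.47, edgeR adjusted p = 0.0011), and its near-identical copy *Tgtp2* was counted 0, 3 and 0 against 0, 2 and 8 times, so the split of reads between them is uncertain. *Iigp1* (gene ID 60440), an effector GTPase that loads onto the vacuole of parasites, was counted 11, 7 and 10 times in WT and 14, 22 and 34 times in *Aff3ir-ORF2-/-* libraries. Its log2 fold change of 1.23 (SE 0.39, edgeR adjusted p = 0.0229) lost the call without WT2 (edgeR adjusted p = 0.0886), WT3 (0.0620) or KO3 (0.0850). *Gbp3* (gene ID 55932) and *Gbp7* (gene ID 229900), which like *Gbp2* are guanylate-binding proteins, were counted 26, 29 and 34 against 22, 33 and 44 times, and 59, 58 and 59 against 48, 80 and 62 times. Both overlapped between genotypes, with log2 fold changes of 0.08 (SE 0.27, edgeR adjusted p = 0.830) and 0.03 (SE 0.19, edgeR adjusted p = 0.901), and their signs turned when single libraries were left out.

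None of the 3 RNA sensors passed both thresholds. *Ddx58* (gene ID 230073), which encodes RIG-I, the sensor of short viral RNA ends, was counted 348, 363 and 445 times in WT and 510, 694 and 597 times in *Aff3ir-ORF2-/-* libraries. Every *Aff3ir-ORF2-/-* library was above WT, and the log2 fold change of 0.56 (SE 0.12, edgeR adjusted p = 0.00506) lay just under 1.5-fold, passing it with total counts, with upper quartile scaling, without WT3 and without KO1. *Ifih1* (gene ID 71586), which encodes Mda5, the sensor of long double-stranded RNA, was counted 142, 153 and 188 times in WT and 124, 153 and 136 times in *Aff3ir-ORF2-/-* libraries, a log2 fold change of -0.30 (SE 0.13, edgeR adjusted p = 0.0730). *Dhx58* (gene ID 80861), encoding Lgp2, a helicase that modulates both, was counted 19, 31 and 24 against 24, 38 and 21 times, a log2 fold change of 0.09 (SE 0.29, edgeR adjusted p = 0.817) whose sign turned without WT1 or KO2.

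Of the 11 other stimulated genes, *Rtp4* and *Parp14* rose, both close to a threshold. *Parp14* (gene ID 547253), an ADP-ribosyltransferase, was counted 133, 137 and 155 times in WT and 177, 275 and 224 times in *Aff3ir-ORF2-/-* libraries, a log2 fold change of 0.59 (SE 0.15, edgeR adjusted p = 0.00823) that lay under 1.5-fold without WT1, WT2 or KO2 (0.56, 0.56 and 0.43). *Rtp4* (gene ID 67775), a chaperone of receptors that is also induced by interferon, was counted 26, 29 and 35 against 40, 55 and 68 times, a log2 fold change of 0.78 (SE 0.24, edgeR adjusted p = 0.0194) that lost its call without WT1, WT2 or KO3 (edgeR adjusted p = 0.0770, 0.0668 and 0.0682). *Dtx3l* (gene ID 209200) and *Parp9* (gene ID 80285), whose products form a complex that modifies proteins at damaged DNA, were counted 133, 134 and 170 against 183, 262 and 182 times, and 226, 231 and 293 against 268, 408 and 267 times. KO2 was the highest library for both, and *Dtx3l* passed the adjusted p alone (log2 fold change 0.44, SE 0.16, edgeR adjusted p = 0.0412) while *Parp9* did not (0.25, SE 0.18, edgeR adjusted p = 0.278). *Bst2* (gene ID 69550), or tetherin, which holds budding viruses at the membrane, was counted 262, 247 and 316 against 315, 426 and 365 times and passed the adjusted p alone, with overlapping genotypes (log2 fold change 0.34, SE 0.12, edgeR adjusted p = 0.0385). *Dtx3l* missed the adjusted p without WT1, WT2 or KO2 (edgeR adjusted p = 0.0919 to 0.144), and *Bst2* without these or KO3 (0.0692 to 0.143).

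*Xaf1* (gene ID 327959), a proapoptotic protein, was counted 41, 41 and 68 times in WT and 24, 54 and 35 times in *Aff3ir-ORF2-/-* libraries, a log2 fold change of -0.49 (SE 0.31, edgeR adjusted p = 0.212), and -0.83 (edgeR adjusted p = 0.0185) without KO2. Leaving out single libraries moved it between -0.83 and -0.21. *Trim25* (gene ID 217069), a ubiquitin ligase of the RIG-I pathway, was counted 1337, 1314 and 1446 times in WT and 1369, 1422 and 1346 times in *Aff3ir-ORF2-/-* libraries, and *Ifi35* (gene ID 70110) 159, 195 and 227 against 191, 223 and 204 times. Both overlapped between genotypes, with log2 fold changes of -0.06 (SE 0.05) and 0.01 (SE 0.13), the sign of the latter turning with the settings. The lowest of these 11 genes in WT were *Ifi44* (16, 20 and 32 against 16, 23 and 9 counts), *Zbp1*, a sensor of Z-form nucleic acid that triggers cell death (10, 15 and 16 against 6, 16 and 10 counts), and *Cmpk2*, a mitochondrial nucleotide kinase (12, 13 and 14 against 10, 11 and 17 counts). Their log2 fold changes were -0.58, -0.43 and -0.11, and none passed the test.

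Within each genotype the interferon genes followed an order of libraries. In *Aff3ir-ORF2-/-* MEFs, KO2 was the highest library for 26 of the 39 tested genes (66.7%, against 36.5% of all tested genes) and KO1 the lowest for 28 (71.8%, against 29.4%). KO2 was highest for 5 of 8 factors, 5 of 8 GTPases and 4 of 9 type I genes, whereas of the 16 macrophage markers 13 were highest in KO3 and 3 in KO2. In WT MEFs, WT3 was the highest library for 26 genes (66.7%, against 34.2%) and WT1 the lowest for 23 (59%, against 33.7%). The median coefficient of variation of the 39 genes was 14.7% in WT and 24.2% in *Aff3ir-ORF2-/-* MEFs, and it was the larger in the latter for 26 genes. These orders describe 6 libraries, and genes of 1 library are not independent of each other.

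**Figure D5:**
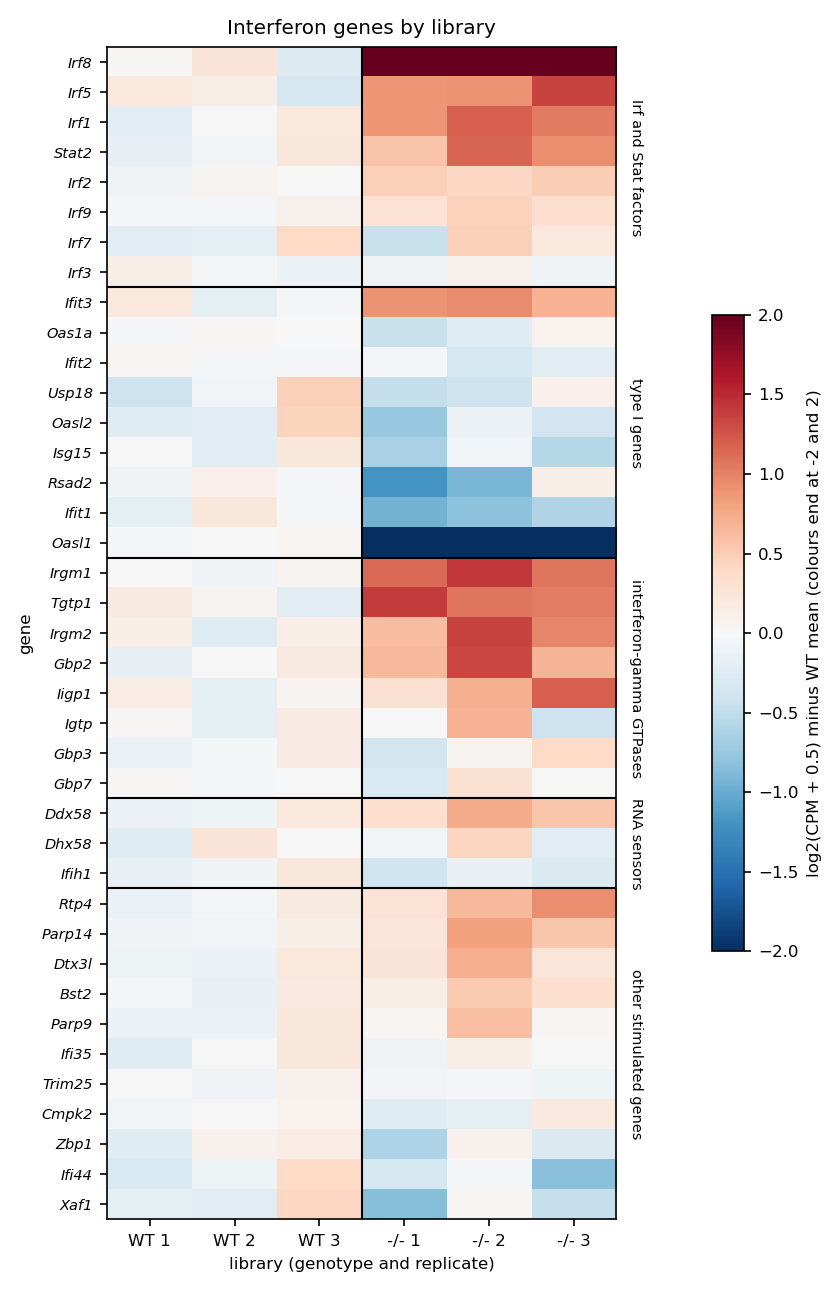
Log2(CPM + 0.5) of the 39 tested interferon genes (rows, by group) in each of the 6 libraries (columns), minus the WT mean, with colours ending at -2 and 2. The factors and GTPases are mostly red in the *Aff3ir-ORF2-/-* columns and the type I genes mostly blue apart from *Ifit3*, with WT3 and KO2 often the reddest column of their genotype.

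Further genes of the pathway were read from lists written by hand, of which 15 rose and 6 fell among 77 tested, against the same backgrounds of 14.2% and 7.27%. Of the 24 ligands and receptors, 16 ligand genes were not analysed here, and *Ifne* and *Ifnz*, the ligands with a row, had at most 5 counts in any library. All 5 tested receptor genes had positive log2 fold changes and 2 rose. *Ifngr2*, the signalling chain of the interferon-gamma receptor, was counted 918, 889 and 900 times in WT and 1645, 1769 and 1657 times in *Aff3ir-ORF2-/-* libraries, a log2 fold change of 0.83 (SE 0.05, edgeR adjusted p = 1.66e-06). The partner chain *Ifngr1*, which binds the ligand, was counted 739, 695 and 727 against 770, 822 and 732 times, a log2 fold change of 0.03 (SE 0.06, edgeR adjusted p = 0.725). *Il10rb*, shared by the receptors of interferon-lambda and interleukin-10, rose by 0.72 (SE 0.07, edgeR adjusted p = 2.36e-05) on the log2 scale. The type I receptor chains *Ifnar1* and *Ifnar2* passed the adjusted p alone, with log2 fold changes of 0.32 and 0.38.

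Of 29 tested signalling genes 5 rose and 1 fell. Those that rose were *Ptpn6*, a phosphatase of blood cells (log2 fold change 4.23), *Ikbke*, a kinase of *Irf3* and *Irf7* (1.17), *Ticam1*, an adaptor of Toll-like receptors (1.02), *Socs3*, a feedback inhibitor of cytokine receptors (0.89), and *Stat3* (0.63). *Ptpn6* was counted 6, 6 and 9 times in WT and 92, 159 and 173 times in *Aff3ir-ORF2-/-* libraries. The order KO1, KO2, KO3 was also seen in *Irf8* and in the summed macrophage markers, and a link between them was not tested. *Jak2*, a kinase of the interferon-gamma receptor, fell by 0.62 (SE 0.09, edgeR adjusted p = 4.79e-04) on the log2 scale, from counts of 1509, 1540 and 1493 to 988, 1224 and 918. *Jak1*, used by every interferon receptor, was at 0.01 (SE 0.05, edgeR adjusted p = 0.833).

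Of 43 further stimulated genes that were tested, 8 rose and 5 fell. *Sp110*, a nuclear body protein, rose from 0, 1 and 2 counts in WT to 13, 32 and 28 counts. *Ifi47*, another immunity-related GTPase, rose by 2.10 (SE 0.29, edgeR adjusted p = 2.33e-04) and *Slfn5*, of the Schlafen family, by 2.04 (SE 0.23, edgeR adjusted p = 5.70e-05) on the log2 scale. The others that rose were *Sp100*, *Phf11d*, *Trim21*, *Gbp6* and *Slfn2*, with log2 fold changes between 0.75 and 1.24. *Gbp9*, a guanylate-binding protein like *Gbp6*, did not pass the test (log2 fold change -0.37, SE 0.29, edgeR adjusted p = 0.291). *Gbp4*, *Gbp5* and *Gbp8* had too few counts to be tested. The genes that fell were *Mndal* (-1.40), *Ifi211* (-0.96, listed under its older symbol *Mnda*), *Herc6* (-0.80), *Slfn9* (-0.75) and *Isg20* (-0.64). *Mndal* and *Ifi211* belong to 1 family of DNA sensors with similar sequences, *Herc6* is the ligase that attaches *Isg15* in mice, and *Isg20* is an RNA exonuclease.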

How the data were processed

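RNA-seq of 3 WT and 3 *Aff3ir-ORF2-/-* MEF libraries was used. By the study's methods, paired-end DNBSEQ reads were filtered with SOAPnuke, and the authors deposited estimated counts of each gene in 1 table, without normalization. The aligner and counting tool are not given in the sources used here, and the submitters' processing notes name the build mm8. Non-whole values made up 10.6% to 11.3% of each library, and all counts were rounded. Members were matched by gene symbol. Gene lists and members were chosen with earlier results of these data known. A rule named every member, and up to 6 called genes per direction and up to 4 by level of each further list. Not every gene that follows from this rule is reported here.

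All 13075 genes that passed filterByExpr (minimum count 10, total 15) were fitted with edgeR 4.0.16 (TMM scaling, quasi-likelihood test, robust estimation) in R 4.3.3, with Benjamini-Hochberg adjustment over all of them. SEs were taken from the log2 fold change and the test's F value. The detection floor was taken as 3 counts per library, 0.161 to 0.174 CPM, which covers counting error only. Promoters came from the RefSeq table of GRCm38.p6, used for sequence alone. Alternatives were DESeq2 1.42.0 and limma 3.58.1 voom, other scalings, filters and thresholds, the replicate block, leaving out each library, and, chosen after seeing the data, no robust estimation. The fits were tested on simulated data. Figures were drawn with matplotlib 3.10.9 in Python 3.11.15.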

Additional observations from a re-analysis of the deposited data

How the results depend on the processing

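Over the 39 interferon genes and the 15 alternatives that refitted the data, 542 of 578 log2 fold changes kept their direction and their side of the thresholds. With a 2-fold threshold, 7 interferon genes rose and 1 fell, the type I genes giving 0 and 1, and over all genes 1096 rose and 317 fell. With no fold threshold, 3831 of all genes were higher and 3591 lower. With at least 10 counts in every library, 1 interferon gene fell, a type I gene, and 3 GTPases rose, with fewer genes tested. Without a filter 2 type I genes rose, *Oas2* being added to *Ifit3*. Leaving out single libraries gave 9 to 13 interferon genes that rose (9 without WT2) and 2 to 5 that fell (5 without KO2). Of the type I genes, 2 to 4 fell (4 without KO2), and the cause was not tested. Signs turned for *Irf3* (0.018 with upper quartile scaling, 0.0084 with total counts, -0.082 to 0.051 without single libraries) and *Ifi35* (-0.0035 without a filter, -0.10 to 0.14), and, when single libraries were left out, for *Irf7* (-0.13 to 0.39), *Igtp* (-0.24 to 0.45), *Gbp3* (-0.19 to 0.29), *Gbp7* (-0.17 to 0.18), *Dhx58* (-0.20 to 0.27) and *Cmpk2* (-0.39 to 0.018). No scaling moved the median of all genes by more than 0.043.

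Whether replicate numbers pair the libraries could not be settled. The deviations of same-numbered libraries correlated at only 0.0386, 0.0424 and 0.0145, although each library correlated best with its own number. With a spread beyond counting noise of 0.0185 in WT, paired libraries could give values this small. With the replicate block, 11 interferon genes rose and 2 fell, and *Parp14* was at 0.58 (edgeR adjusted p = 0.00256), under 1.5-fold. Low counts limited the precision for *Oas2* and *Oas3*.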
